A study of Mus musculus with 12 samples.

Results

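Cybb, Cyba, Ncf1, Ncf4, and Rac2 encode 5 subunits of the phagocyte NADPH oxidase, and they were followed in the RNA-Seq libraries of donor T cells from the liver of recipients after hematopoietic cell transplantation (HCT). They were picked by name, with their differences between donor genotypes already known, from the 25078 genes in the table. Each genotype difference of these 5 genes is therefore given as a description with no p. All 5 genes passed the filter on low counts in every fit.

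Lethally irradiated WT BALB/c mice were given T cell-depleted bone marrow from WT C57BL/6 mice together with C57BL/6 T cells. Donor T cells (H-2Kb+ TCRβ+) were sorted from the liver on day 6. The T cell donors were WT, Stat3 fl/fl CD4-Cre (STAT3ko), or Stat3 fl/fl PD-1-/- CD4-Cre (STAT3ko PD-1ko), with the CD4+ and the CD8+ fraction of each. CD4-Cre is active throughout the αβ T cell lineage, whereas PD-1 was missing from the germline. All recipients were given the same kind of WT marrow. Each of the 6 groups had 2 libraries, each made from cells combined from 3 recipients, so that a replicate is a pool and not a mouse. Library totals ranged from 21676125 to 24551477 counts, with a median of 23442480.

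The phagocyte NADPH oxidase transfers electrons from NADPH across a membrane to oxygen and so makes superoxide. Its catalytic core is a heterodimer of gp91phox (Cybb, also called NOX2) and p22phox (Cyba), and it is switched on when cytosolic subunits, among them p47phox (Ncf1) and p40phox (Ncf4), and GTP-bound Rac2 move to the membrane. The complex is best known from neutrophils and macrophages, and its loss causes chronic granulomatous disease. T cells also carry it at lower levels, where it is known to feed into signaling after engagement of the T cell receptor.

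The 5 genes sit on 4 chromosomes of mm10. Cybb lies on the minus strand of chromosome X (9435254 to 9469324), with 4750 exonic bases. Cyba lies on the minus strand of chromosome 8 (122424771 to 122432940), and Ncf1 lies on the minus strand of chromosome 5 (134220053 to 134229625). Ncf4 (78244811 to 78262580, plus strand) and Rac2 (78559169 to 78572783, minus strand) are both on chromosome 15. The annotation places a multi-copy gene, Btbd35f15, across a span that includes Cybb, and it had 0 counts in every library. No other gene of the table overlaps a member.

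The upstream sequences of the 2 genes that differed most between genotypes, Cybb and Ncf1, are shown for the letters that immune transcription factors are known to bind. They are the 250 bases before the RefSeq start (GRCm38.p6), both written on the minus strand, Cybb from chrX:9469325-9469574 and Ncf1 from chr5:134229626-134229875. Capitals mark matches on either strand to 4 motifs. The motifs were the STAT letters TTCNNNGAA, the interferon response letters (GAAA, then any 2 bases, then GAAA), the ETS (PU.1 type) letters GAGGAA, and the CCAAT box CCAAT.
Cybb: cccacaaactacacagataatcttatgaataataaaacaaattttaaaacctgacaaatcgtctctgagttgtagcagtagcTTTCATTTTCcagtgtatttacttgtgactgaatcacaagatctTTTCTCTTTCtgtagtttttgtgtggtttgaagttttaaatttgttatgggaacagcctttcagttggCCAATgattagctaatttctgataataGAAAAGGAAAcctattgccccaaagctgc
Ncf1: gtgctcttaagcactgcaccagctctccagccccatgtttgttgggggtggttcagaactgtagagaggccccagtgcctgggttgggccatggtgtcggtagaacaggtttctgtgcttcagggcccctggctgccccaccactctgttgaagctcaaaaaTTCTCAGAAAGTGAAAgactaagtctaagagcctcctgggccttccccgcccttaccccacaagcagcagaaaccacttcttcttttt
Cybb held 3 matches to the interferon response letters, beginning 168, 124, and 29 bases upstream of the start, and 1 match to CCAAT at 56 bases. It held none to TTCNNNGAA or GAGGAA in this window. In Ncf1, TTCNNNGAA matched once at 88 bases and the interferon response letters once at 82 bases, and these matches overlap by 3 bases. Of 27025 mouse promoters of the same length, 7.18% hold TTCNNNGAA, 3.04% hold the interferon response letters, 23.1% hold GAGGAA, and 34.5% hold CCAAT. Cyba (60% G or C, against 34% in Cybb) held none of the 4. A match is a run of letters and not a measured binding site.

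Before the oxidase genes, the targeted genes and the sort were checked. Stat3 was at 368 and 467 CPM (counts scaled to a common library size, with TMM factors) in the CD4+ WT libraries, 140 and 164 in STAT3ko, and 157 and 219 in STAT3ko PD-1ko. In CD8+ T cells Stat3 was at 397 and 384 CPM in WT, 149 and 135 in STAT3ko, and 154 and 235 in STAT3ko PD-1ko. Stat3 was thus lower in every library of the floxed donors than in every WT library of its subset, counted over all exons together. Stat3 passed the test in STAT3ko PD-1ko against WT (log2 fold change -1.13, adjusted p = 0.018 in CD4+ and -1.0, adjusted p = 0.0177 in CD8+ T cells). The CD4+ call was lost without either STAT3ko PD-1ko library (adjusted p = 0.112 and 0.075) or the second WT library (0.0687). In STAT3ko against WT it did not pass (-1.46 in both subsets, adjusted p = 0.055 and 0.108), although 6 of 14 alternative fits called it in CD4+ and 3 of 14 in CD8+ T cells, DESeq2 among them (adjusted p = 1.99e-07 and 3.69e-09). Pdcd1, which encodes PD-1, was at 235 to 323 CPM in the CD4+ libraries of WT and STAT3ko and at 55.1 and 26.0 CPM in STAT3ko PD-1ko. In CD8+ T cells Pdcd1 was at 307 to 454 CPM against 93.5 and 65.5. Cd4 was at 1241 to 1887 CPM in the CD4+ libraries and at most 2.73 CPM in the CD8+ libraries, and Cd8a was at 589 to 1339 CPM in the CD8+ and at most 5.64 CPM in the CD4+ libraries. Of 11 T cell genes, among them the CD3 chains and the coreceptors, 6 fell and 0 rose in CD8+ STAT3ko PD-1ko against WT (17.2% of all genes were called), and 5 fell against STAT3ko (16.8% of all genes). In CD4+ T cells 2 fell against WT (12.9% of all genes) and 0 passed against STAT3ko (11.1% of all genes). Their summed level in CD8+ T cells was 8254 and 8371 CPM in WT, 7557 and 8136 in STAT3ko, and 5636 and 5699 in STAT3ko PD-1ko. In CD4+ T cells it was 8165 and 7771 CPM in WT, 7465 and 7453 in STAT3ko, and 6558 and 6287 in STAT3ko PD-1ko. Both STAT3ko PD-1ko libraries were thus the lowest of each subset. Cd8a itself fell by 1.09 against WT in CD8+ T cells (adjusted p = 0.00414), whereas Thy1, the most abundant of the 11, was at -0.29 (adjusted p = 0.0655). These p-values are Benjamini-Hochberg adjusted values of edgeR's quasi-likelihood test over all genes.

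Cybb, the catalytic subunit, stood out among the 5 genes. In CD4+ T cells it was at 6.32 and 4.91 CPM in WT, at 73.6 and 72.9 CPM in STAT3ko, and at 32.5 and 18.7 CPM in STAT3ko PD-1ko. Both STAT3ko libraries were higher than all others, both WT libraries were lower, and the 3 genotypes did not overlap. As compared with WT CD4+ T cells, the mean was 13 times as high in STAT3ko (73.3 ± 0.529 against 5.61 ± 0.996 CPM, SD, n = 2), with a log2 fold change of 3.71 (SE 0.290). In STAT3ko PD-1ko the mean was 25.6 ± 9.73 CPM (SD, n = 2), which gave a log2 fold change of 2.21 (SE 0.278) against WT and -1.50 (SE 0.261) against STAT3ko. The STAT3ko PD-1ko libraries differed from each other more than those of the other genotypes, and without the first of them the difference from STAT3ko was -1.94.

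In CD8+ T cells Cybb was low, at 1.73 and 2.44 CPM in WT (39 and 61 reads), 11.3 and 13 CPM in STAT3ko, and 3.27 and 2.86 CPM in STAT3ko PD-1ko. The order of the genotypes was the one seen in CD4+ T cells, again with no overlap. The log2 fold changes were 2.53 (SE 0.259) for STAT3ko against WT, 0.56 (SE 0.263) for STAT3ko PD-1ko against WT, and -1.98 (SE 0.251) for STAT3ko PD-1ko against STAT3ko. In STAT3ko against WT, 7 of 12002 genes (0.0583%) passed an adjusted p of 0.05 in CD8+ T cells and 40 of 11959 (0.334%) in CD4+ T cells, and with the library number as a block 9 and 303 passed. By absolute log2 fold change, Cybb ranked 23 of 12002 in CD8+ and 19 of 11959 in CD4+ T cells. For Cybb in CD8+ T cells, the mean of STAT3ko PD-1ko was 3.06 ± 0.292 CPM and that of WT 2.08 ± 0.496 CPM (SD, n = 2), and the log2 difference came to 0.91 between the libraries numbered 1 and 0.23 between those numbered 2.

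**Figure D1:**
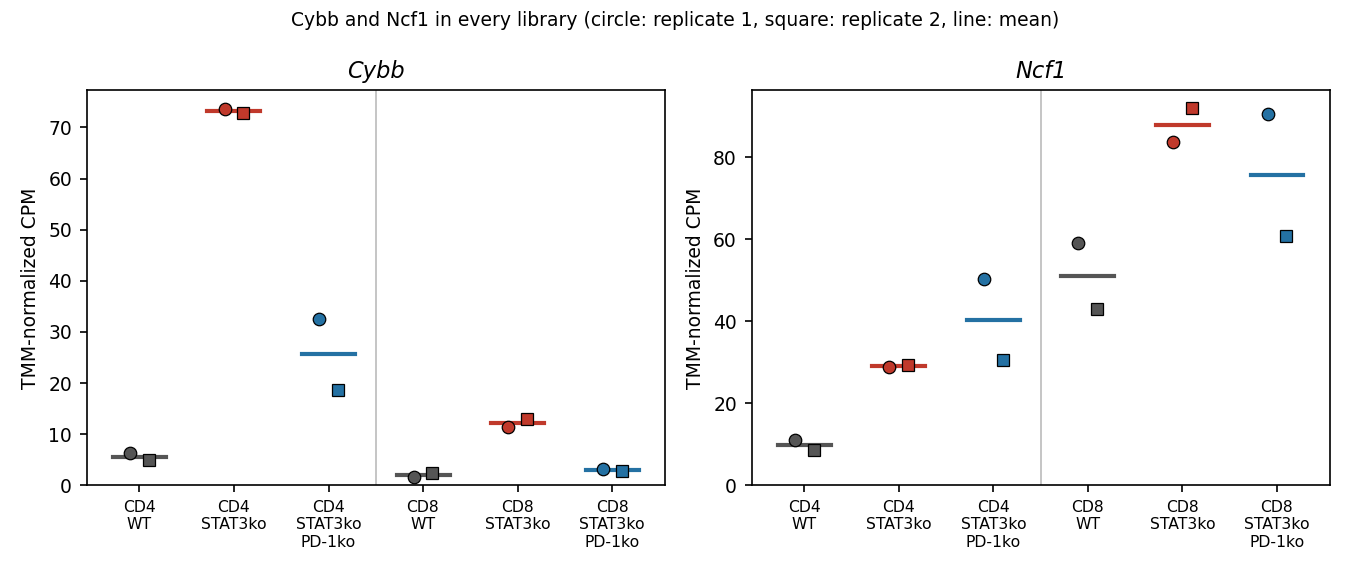
TMM-normalized CPM of Cybb (left) and Ncf1 (right) in each of the 12 libraries, grouped by T cell subset and donor genotype, where lines are means of 2 libraries. Cybb is highest in CD4+ STAT3ko (73.6 and 72.9 CPM), whereas Ncf1 is higher in every CD8+ STAT3ko and STAT3ko PD-1ko library than in every CD4+ library.

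Ncf1, the organizer subunit of the complex, also differed between the genotypes. In CD4+ T cells it was at 11 and 8.72 CPM in WT, 28.8 and 29.5 CPM in STAT3ko, and 50.3 and 30.5 CPM in STAT3ko PD-1ko. Both knockout genotypes were above WT, and STAT3ko PD-1ko was not below STAT3ko, unlike Cybb. The log2 fold changes of Ncf1 were 1.57 (SE 0.258) in STAT3ko and 2.06 (SE 0.260) in STAT3ko PD-1ko against WT, and 0.49 (SE 0.248) between the knockout genotypes.

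Among the CD8+ libraries, Ncf1 was at 59.0 and 42.9 CPM in WT, 83.8 and 92.2 CPM in STAT3ko, and 90.5 and 60.9 CPM in STAT3ko PD-1ko. The knockout libraries lay above both WT libraries and overlapped each other. Ncf1 had log2 fold changes of 0.79 (SE 0.220) and 0.58 (SE 0.219) against WT, and -0.21 (SE 0.218) between STAT3ko PD-1ko and STAT3ko.

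The other 3 subunits differed little between WT and STAT3ko. Cyba, the partner that stabilizes gp91phox, was at 191 and 182 CPM in CD4+ WT, 173 and 158 in STAT3ko, and 157 and 167 in STAT3ko PD-1ko. The CD8+ libraries held Cyba at 199 and 173 CPM in WT, 175 and 166 in STAT3ko, and 148 and 162 in STAT3ko PD-1ko. Its log2 fold changes over the 6 genotype comparisons lay between -0.25 and -0.01, with an SE of at most 0.137. Ncf4, the subunit whose PX domain binds phosphoinositides, was at 79.0 to 94.0 CPM in the CD4+ libraries and 70.5 to 90.0 CPM in the CD8+ libraries. The largest log2 fold change of Ncf4 was 0.25 (SE 0.116), for CD8+ STAT3ko PD-1ko against WT.

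Rac2, the hematopoietic Rac GTPase, was at 2220 and 2212 CPM in CD4+ WT, 1962 and 2151 in STAT3ko, and 1539 and 1595 in STAT3ko PD-1ko. For CD8+ T cells, Rac2 was at 1842 and 1753 CPM in WT, 1785 and 1888 in STAT3ko, and 1209 and 1266 in STAT3ko PD-1ko. Both STAT3ko PD-1ko libraries were lower than all other libraries of the subset. Its log2 fold changes against WT were -0.48 (SE 0.121) in CD4+ and -0.53 (SE 0.0912) in CD8+ STAT3ko PD-1ko, and -0.10 (SE 0.121) and 0.03 (SE 0.091) in STAT3ko. The summed T cell genes were lowest in the same libraries, and their part in the difference of Rac2 was not tested.

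Counted over the 5 genes, the STAT3ko and WT libraries did not overlap for 4 in CD4+ T cells (Cybb and Ncf1 higher, Cyba and Rac2 lower) and for 2 in CD8+ T cells (Cybb and Ncf1 higher). Over all genes tested, 38.2% and 43.6% did not overlap in these comparisons. For STAT3ko PD-1ko against WT, the libraries did not overlap for 4 genes in CD4+ T cells (59.2% of all genes) and for all 5 in CD8+ T cells (59.7%), and against STAT3ko for 3 (59.2%) and 4 (63.1%). The median log2 fold change of the 5 genes in STAT3ko against WT was -0.00 for the CD4+ subset and 0.04 for the CD8+ subset, beside 0.01 and -0.01 over all genes.

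**Figure D2:**
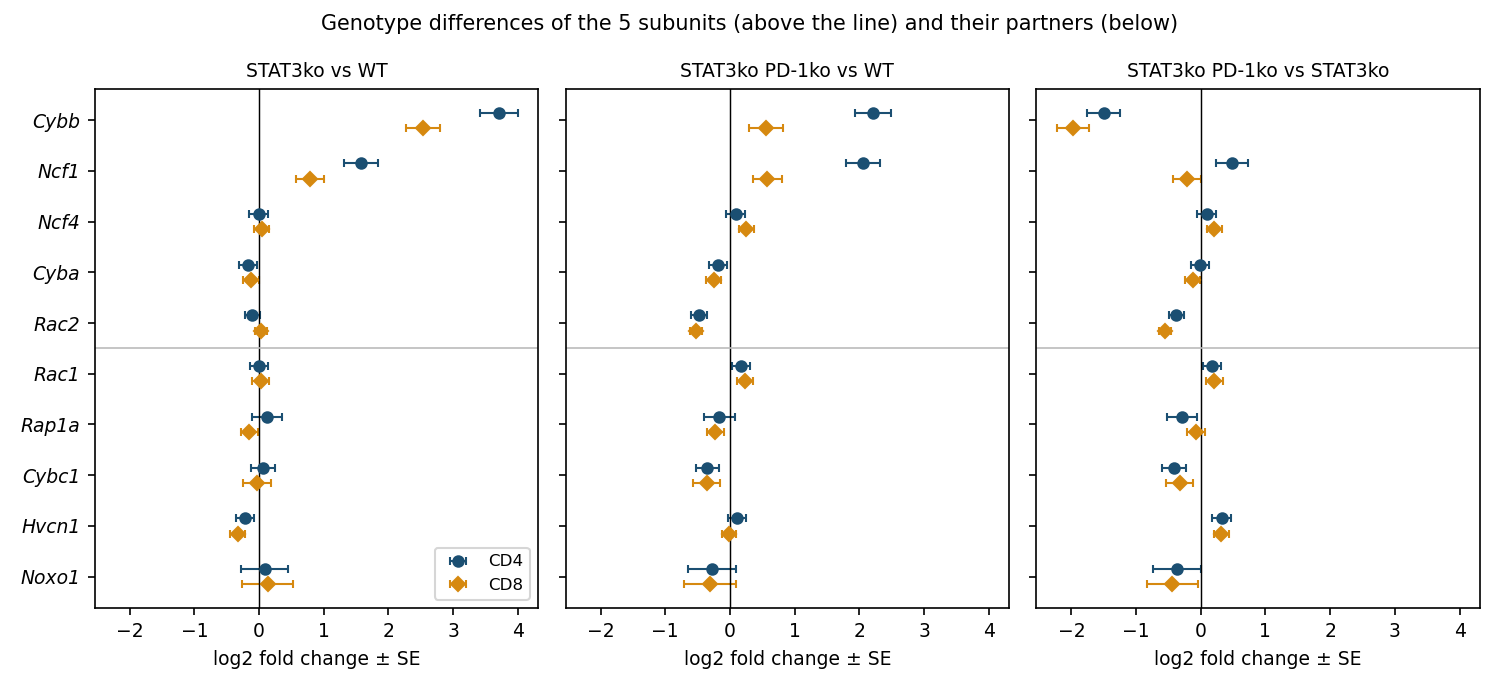
Log2 fold changes with SE for the 3 genotype comparisons in CD4+ (circles) and CD8+ (diamonds) T cells, for the 5 subunits above the line and 5 partner genes below it. Cybb and Ncf1 are higher in STAT3ko than in WT (3.71 and 1.57 in CD4+ T cells), while the other 3 subunits lie between -0.17 and 0.04 in that comparison, and Rac2 is lower in STAT3ko PD-1ko than in WT (-0.48 and -0.53).

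Levels of different genes were compared per exon length, as RPKM. Rac2 led in every group, with a mean of 422 to 735 RPKM, followed by Cyba (211 to 248 RPKM) and Ncf4 (50.1 to 61.3 RPKM). Ncf1 was at 3.34 RPKM in CD4+ WT, 9.82 in CD4+ STAT3ko, and 14.0 in CD4+ STAT3ko PD-1ko, and at 17.4 to 30.1 RPKM in the CD8+ groups. Cybb was the lowest of the 5 genes in 5 of the 6 groups, between 0.445 RPKM in CD8+ WT and 5.56 RPKM in CD4+ STAT3ko PD-1ko. In CD4+ STAT3ko it was at 15.4 RPKM, above Ncf1.

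The level of Cyba relative to its partner Cybb therefore differed widely. Per exon length, Cyba was 189 and 232 times the level of Cybb in the CD4+ WT libraries and 14.7 and 13.6 times in CD4+ STAT3ko. In CD4+ STAT3ko PD-1ko the ratio was 30.1 and 55.8. In CD8+ T cells it was 717 and 444 in WT, 96.7 and 80.0 in STAT3ko, and 284 and 354 in STAT3ko PD-1ko. These are ratios of RNA levels and not of protein.

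**Figure D3:**
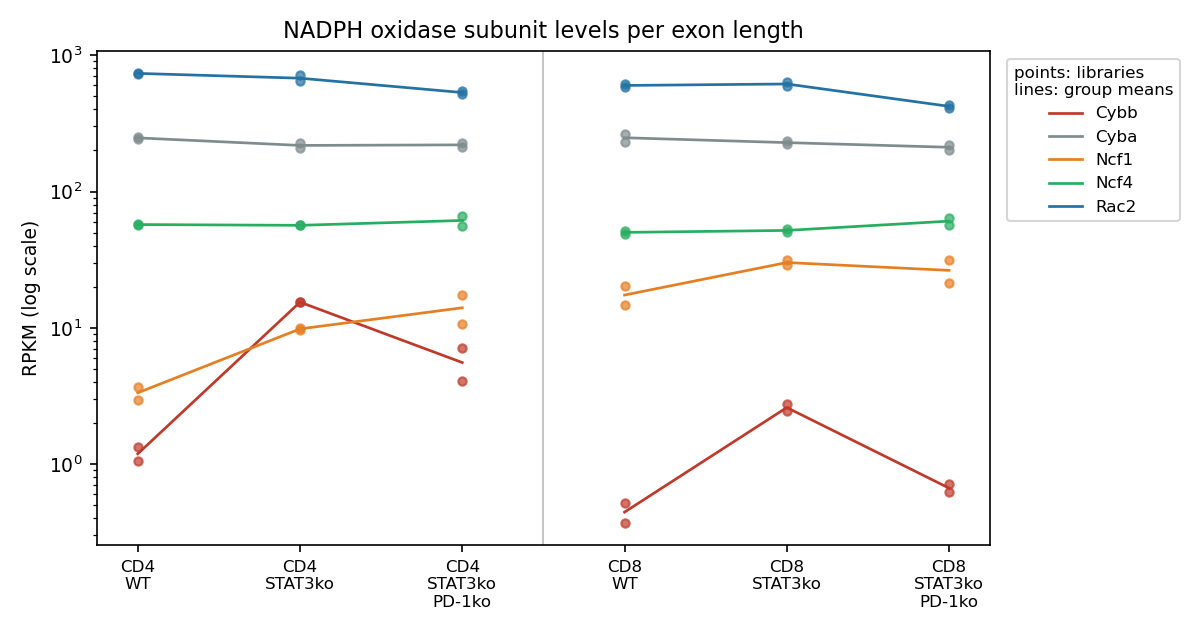
RPKM on a log scale for the 5 subunits in the 6 groups, with points for libraries and lines through group means. Rac2 runs from 735 RPKM (CD4+ WT) to 422 RPKM (CD8+ STAT3ko PD-1ko), and Cybb spans 0.445 RPKM (CD8+ WT) to 15.4 RPKM (CD4+ STAT3ko).

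The CD8+ and CD4+ libraries of each genotype were compared as well. They are the libraries from which the 5 genes were chosen, so these differences are also given as a description with no p. Cybb was lower in every CD8+ library than in both CD4+ libraries of its genotype, and Ncf1 was higher. Cybb gave a log2 fold change of CD8+ over CD4+ T cells of -1.42 (SE 0.289) in WT, -2.59 (SE 0.260) in STAT3ko, and -3.06 (SE 0.279) in STAT3ko PD-1ko. Every CD8+ library was below the CD4+ library of the same number, with log2 ratios of Cybb from -3.31 to -1.01.

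Ncf1 went the other way in the CD8+ libraries. It gave 2.37 (SE 0.279) in WT, 1.59 (SE 0.266) in STAT3ko, and 0.91 (SE 0.261) in STAT3ko PD-1ko. The other 3 subunits differed less between the subsets. Rac2 was at -0.30 in WT, -0.16 in STAT3ko, and -0.34 in STAT3ko PD-1ko. Cyba lay between -0.06 and 0.04, and Ncf4 between -0.20 and -0.02, with SE of at most 0.118 and 0.12.

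**Figure D4:**
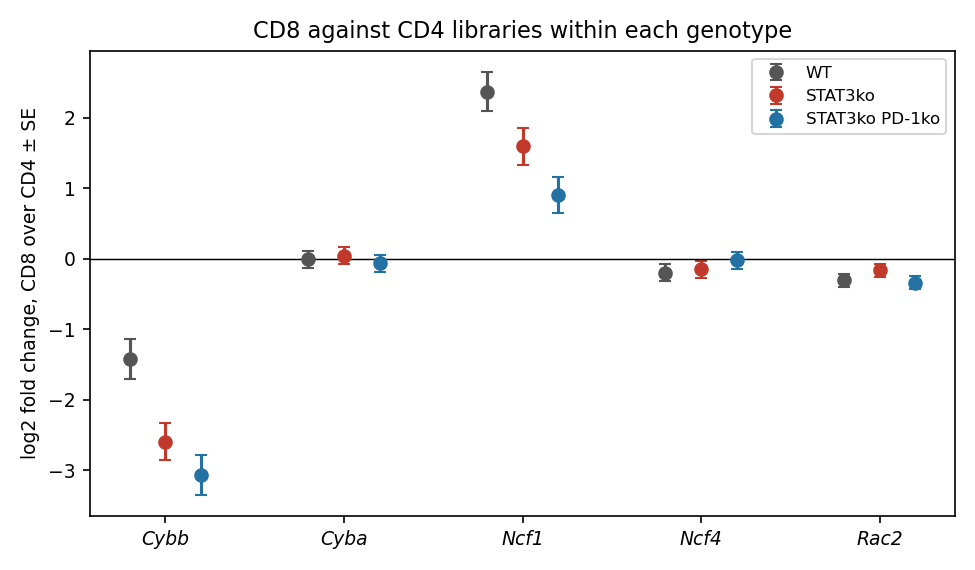
Log2 fold change of CD8+ over CD4+ T cells with SE for each subunit in WT, STAT3ko, and STAT3ko PD-1ko donors. Cybb is below 0 in all 3 genotypes (-1.42, -2.59, and -3.06) and Ncf1 above 0 (2.37, 1.59, and 0.91), while Cyba and Ncf4 lie between -0.20 and 0.04.

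How far the genotype differences themselves differed between the subsets is given as a description for the 5 genes. For STAT3ko against WT, the CD8+ difference minus the CD4+ difference was -1.17 (SE 0.382) for Cybb and -0.78 (SE 0.374) for Ncf1 on the log2 scale. For STAT3ko PD-1ko against WT, it was -1.64 (SE 0.396) for Cybb and -1.47 (SE 0.374) for Ncf1. Over the whole table, edgeR called 0 (0%), 1 (0.00811%), and 0 (0%) of 12334 genes in the 3 such comparisons (228, 547, and 443 at an unadjusted p under 0.05). The gene called was Ccl5, a chemokine named after its values were seen (-2.35, adjusted p = 0.000614).

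The partners of the oxidase were a second list of genes, of which 7 were in the table and 6 were tested. None passed the test in any of the 6 genotype comparisons or the 3 subset comparisons. Noxo1 and Noxa1, the organizer and activator of epithelial oxidases, were at most 1.6 CPM for Noxo1 and had 0 to 2 reads for Noxa1.

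The other partners were well detected. Rac1, the ubiquitous Rac GTPase, was at 333 to 450 CPM, with log2 fold changes between 0.00 and 0.23 (adjusted p from 0.245 to 0.997). Cybc1, a chaperone needed for gp91phox protein, was at 69.3 to 122 CPM. Its log2 fold changes were 0.06 and -0.03 in STAT3ko against WT, and it was -0.35 and -0.36 in STAT3ko PD-1ko (adjusted p = 0.261 and 0.283). Hvcn1, the proton channel that balances the charge of the electron flow, was at 98.6 to 138 CPM, with -0.22 and -0.33 in STAT3ko (adjusted p = 0.697 and 0.367). Rap1a, a small GTPase that copurifies with cytochrome b558, was at 62.1 to 120 CPM, with 0.12 and -0.15 (adjusted p = 0.92 and 0.734).

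Another list held 7 genes, the other NADPH oxidases (Nox1, Nox3, Nox4, Duox1, and Duox2) and their maturation factors (Duoxa1 and Duoxa2). None was tested, because their counts fell below the filter. Nox1 had the most, with 10 reads in 1 CD4+ STAT3ko library and 0 to 8 in the others. The summed level of all 7 genes was at most 0.444 CPM. Among these and Cybb, only Cybb had more than 10 reads in any library.

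Upstream of the oxidase, Rac is loaded with GTP by exchange factors and p47phox is phosphorylated by protein kinase C. Of the 15 genes of this input, none passed the test in STAT3ko against WT in either subset. In STAT3ko PD-1ko against WT, 2 of 14 fell in CD4+ T cells (12.9% of all genes changed), and 5 of 15 fell and 2 rose in CD8+ T cells (17.2% of all genes). In STAT3ko PD-1ko against STAT3ko, 4 fell and 1 rose in CD4+ T cells (11.1% of all genes), and 5 fell and 2 rose in CD8+ T cells (16.8% of all genes). With the library number as a block, 3 fell and 1 rose against WT (26.0% of all genes) and 6 fell and 1 rose against STAT3ko (26.0%) in CD4+ T cells, and 6 fell and 2 rose in CD8+ T cells both against WT (24.7%) and against STAT3ko (24.4%). The 11 T cell genes were lowest in the same STAT3ko PD-1ko libraries, and their part in these counts was not tested.

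Prkcb, a kinase of p47phox, was lower in STAT3ko PD-1ko than in WT. In CD4+ T cells it was at 459 and 537 CPM in WT, 456 and 499 in STAT3ko, and 296 and 321 in STAT3ko PD-1ko (log2 fold change -0.67 against WT, adjusted p = 0.0293). The CD8+ libraries had Prkcb at 458 and 470 CPM in WT, 419 and 416 in STAT3ko, and 239 and 258 in STAT3ko PD-1ko (-0.89, adjusted p = 0.00466). Prkcq, the kinase of the T cell synapse, fell by 0.64 in CD4+ (adjusted p = 0.0263) and by 0.68 in CD8+ T cells (adjusted p = 0.0108) on the same scale. In CD4+ T cells, no gene of this list passed without either STAT3ko PD-1ko library, and none passed against WT without either WT library. Without the second CD8+ STAT3ko PD-1ko library, 1 gene (Prkcb, adjusted p = 0.049) passed against WT and 0 against STAT3ko.

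Among the exchange factors, Dock2, the main activator of Rac in lymphocytes, fell by 0.64 against WT (adjusted p = 0.00754) and by 0.71 against STAT3ko (adjusted p = 0.00644) in CD8+ STAT3ko PD-1ko. Prex1 fell by 0.58 (adjusted p = 0.0234) and by 0.95 (adjusted p = 0.00725) in the same comparisons, and by 0.65 against STAT3ko in CD4+ T cells (adjusted p = 0.0457). Tiam1 and Vav2, also exchange factors of Rac, rose in CD8+ STAT3ko PD-1ko against WT, by 1.09 (adjusted p = 0.0218) and 1.08 (adjusted p = 0.0277). Tiam1 rose by 1.32 against STAT3ko in CD4+ T cells too (adjusted p = 0.0174). Vav3 fell by 0.64 between the knockout genotypes in CD4+ T cells (adjusted p = 0.0395). Arhgap15, which switches Rac off, fell by 0.62 against WT in CD8+ T cells (adjusted p = 0.0395). Arhgdib, which holds Rac in the cytosol and was the most abundant gene of the list (982 to 1237 RPKM), fell by 0.31 against STAT3ko in CD8+ T cells (adjusted p = 0.0474). The calls of Arhgdib in CD8+ and Vav3 in CD4+ T cells were lost in each of the 6 fits that left out 1 library (adjusted p of up to 0.215 for Arhgdib and 0.231 for Vav3). Against WT in CD8+ T cells, the calls of Tiam1, Prex1, and Arhgap15 were also lost without the first STAT3ko PD-1ko library (adjusted p = 0.0767, 0.0649, and 0.0696), those of Vav2 and Prex1 without the first WT library (0.0567 and 0.0874), and those of Tiam1, Vav2, and Arhgap15 without the second WT library (0.101, 0.13, and 0.173). The call of Prex1 in CD4+ T cells was also lost without the second STAT3ko (0.179) or second WT library (0.0526).

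Between the subsets, Vav3 was lower in CD8+ than in CD4+ T cells in all 3 genotypes, by log2 fold changes of -1.40, -1.47, and -1.19 (adjusted p = 0.000195, 0.000167, and 0.00113), where 10.5%, 9.62%, and 4.14% of all genes were called. Prkca, named after its values were seen, was also lower (-0.50, -0.51, and -0.59, with adjusted p = 0.0364, 0.0356, and 0.032), and each of these calls was lost without any 1 of the 4 libraries compared (adjusted p of up to 0.212). No other of the 15 genes passed in the subset comparisons.

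A further list held 10 factors known to act at the Cybb promoter in phagocytes. Spi1, which encodes the myeloid factor PU.1, had 0 to 12 reads per library and was at most 0.479 CPM. None of the 9 genes tested passed in STAT3ko against WT. Irf8, an interferon regulatory factor, was at 56.5 and 69.5 CPM in CD4+ WT, 81.6 and 66.2 in STAT3ko, and 145 and 121 in STAT3ko PD-1ko. It rose by 1.10 against WT (adjusted p = 0.0117) and by 0.87 against STAT3ko (adjusted p = 0.0299) in CD4+ STAT3ko PD-1ko, where Cybb was lower than in STAT3ko. In WT, Irf8 was higher in CD8+ than in CD4+ T cells (0.89, adjusted p = 0.00852), opposite to Cybb. The calls of Irf8 in CD4+ T cells were lost without either STAT3ko PD-1ko library (adjusted p = 0.0898 and 0.0771 against WT, 0.13 and 0.153 against STAT3ko), without the first CD4+ WT library (0.058 against WT), and without the second CD4+ STAT3ko library (0.1 against STAT3ko). The call in WT between the subsets was lost without the first CD4+ (0.0625) or first CD8+ WT library (0.0546).

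Irf1, the most abundant gene of the list by mean RPKM over the 12 libraries (Nfkb1 or Elf1 led in 8 of them), was at 547 CPM in the first and 287 CPM in the second CD4+ WT library, and its first library was the higher one in all 6 groups. Irf1 passed the test in no comparison, but with the library number as a block it was lower in STAT3ko PD-1ko than in STAT3ko (-0.79, adjusted p = 0.0177 in CD4+ and -1.15, adjusted p = 0.0111 in CD8+ T cells) and than in WT in CD8+ T cells (-1.03, adjusted p = 0.0137). Nfkb1 was lower in CD8+ than in CD4+ T cells in WT (-0.84, adjusted p = 0.00316) and STAT3ko (-0.74, adjusted p = 0.00697), and Cebpa in WT (-2.01, adjusted p = 0.0227). Both were named after their values were seen. The call of Cebpa, with 5 to 43 reads per library, was lost without either CD4+ WT library (0.067 and 0.104) or the second CD8+ WT library (0.124), and that of Nfkb1 in STAT3ko without the second CD8+ STAT3ko library (0.0562).

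Enzymes that remove superoxide and peroxides were the last list, with 5 of 6 genes tested, and none passed in any genotype or subset comparison (with the library number as a block, Gpx1 rose in STAT3ko PD-1ko against STAT3ko in both subsets). Sod1, the cytosolic superoxide dismutase and the most abundant of them (170 to 242 RPKM), had log2 fold changes of -0.03 and 0.03 in STAT3ko against WT (adjusted p = 0.982 and 0.973). The median over the list in STAT3ko PD-1ko against WT was 0.20 for the CD4+ subset and 0.17 for the CD8+ subset, beside -0.01 and -0.00 over all genes.

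Because Cybb and Ncf1 are abundant in phagocytes and B cells, markers of the other cells that a sort from the liver could hold were measured. Of 14 macrophage and Kupffer cell markers, Cd68 was the most abundant by RPKM in every library, at 5.93 to 10.3 CPM in the CD4+ and 16.9 to 29.1 CPM in the CD8+ libraries. The other 13 summed to 10.1 to 14.5 CPM in the second libraries of WT and STAT3ko, in both subsets, and to 1.25 to 2.73 CPM in the 8 others. Clec4f, which marks Kupffer cells, was at 1.02 to 1.65 CPM in those 4 libraries and at most 0.238 CPM in the rest. Csf1r, Adgre1, C1qa, and Lyz2 were each below 2 CPM in every library. In CD8+ T cells, Cd68 was at 23.7 and 23.4 RPKM in WT, 22.2 and 22.6 in STAT3ko, and 14.1 and 15.2 in STAT3ko PD-1ko. Of the 10 markers tested there, 1 was called lower in STAT3ko PD-1ko against WT (17.2% of all genes were called). Against STAT3ko, where Cybb was lower too, 1 was also called lower (16.8% of all genes). The part of these cells in the results was not tested. Between the libraries numbered 1 alone, the log2 difference of Cybb in STAT3ko against WT was 3.54 for the CD4+ subset and 2.71 for the CD8+ subset, and between those numbered 2 it was 3.89 and 2.41.

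**Figure D5:**
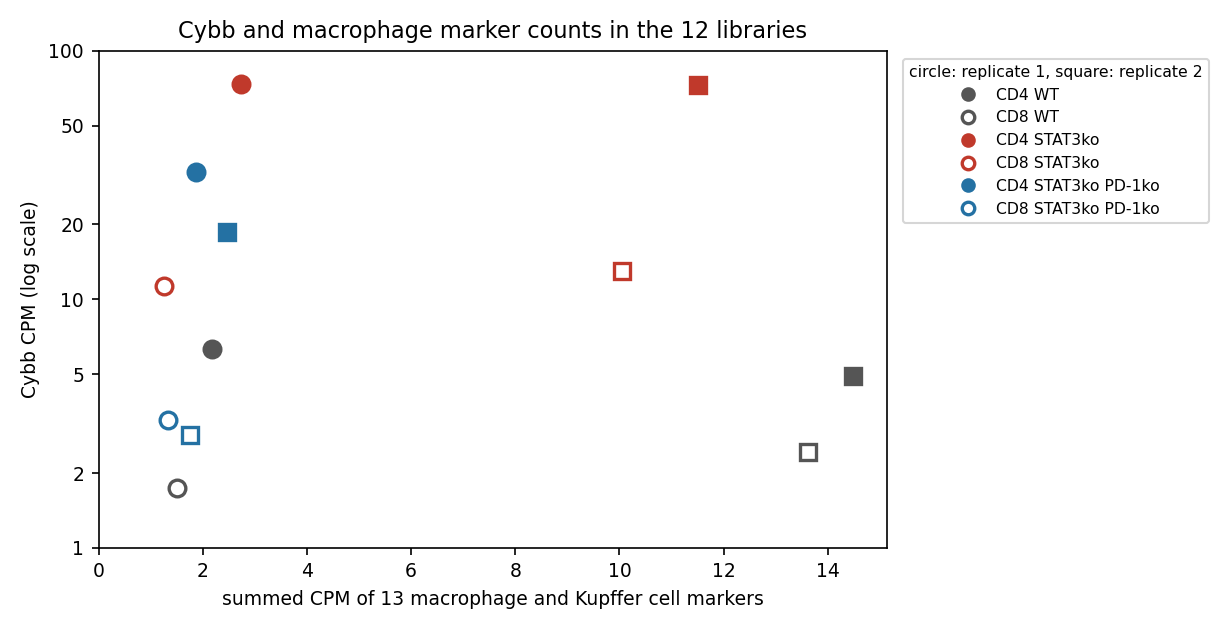
Cybb CPM on a log scale against the summed CPM of 13 macrophage and Kupffer cell markers in each of the 12 libraries (filled CD4+, open CD8+). The 4 libraries with more than 10 CPM of markers include the second WT libraries, with 4.91 and 2.44 CPM of Cybb, and the 2 STAT3ko libraries with 73.6 and 72.9 CPM of Cybb differ in markers (2.73 and 11.5 CPM).

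Of 13 neutrophil markers, S100a8, S100a9, Csf3r, and Ly6g had at most 14 reads per library, and the summed level of the list was at most 1.86 CPM. Among 9 B cell markers, Ms4a1 was at 0 in every library, Cd79a had at most 5 reads, and Pax5 at most 9. Cd79b, the most abundant of the list by mean RPKM, was at 1.39 to 2.26 CPM in CD4+ and 5.10 to 14.5 CPM in CD8+ T cells. Cd22, named after its values were seen, took most of the counts of this list in CD4+ T cells and differed between genotypes. It was at 7.64 and 16.2 CPM in CD4+ WT, 31.1 and 40.4 in STAT3ko, and 41.7 and 43.0 in STAT3ko PD-1ko. The summed level of the list was 10.2 to 44.8 CPM in the CD4+ and 20.2 to 28.6 CPM in the CD8+ libraries, and the part of B cells in the results was not tested. Of 8 dendritic cell markers, Siglech was at 0 throughout, Clec9a had at most 1 read, Xcr1 at most 3, and Zbtb46 was at most 1.63 CPM. Itgax, the most abundant of the list by mean RPKM, ranged from 363 CPM or more in CD8+ WT down to 4.98 and 5.72 CPM in CD4+ STAT3ko PD-1ko. Itgax was lower in CD4+ STAT3ko (25.9 and 27.7 CPM) than in CD4+ WT (70.5 and 62.2 CPM). Of the 3 dendritic cell markers tested in that comparison, 1 was called lower and 0 higher (0.334% of all genes were called). Their median log2 fold change was 0.12. Ccr9 led this list by RPKM in both CD4+ STAT3ko libraries (9.08 and 16.8 RPKM). The part of dendritic cells in the results was not tested. The summed level of 9 hepatocyte markers, led by Apoa2 in mean RPKM, was at most 5.14 CPM, with at most 13 reads of Alb, 7 of Apoa1, and 2 of Ttr. That of 6 liver endothelial markers, led by Oit3 in mean RPKM, was at most 4.87 CPM, with at most 27 reads of Stab2, 9 of Clec4g, and 22 of Cdh5. That of 6 erythroid markers, led by Alas2 in mean RPKM, was at most 0.562 CPM, and Hba-a1 was at 0. Since Cybb is X-linked, the sex genes were read as well, and Xist had at most 6 reads while Ddx3y was at 111 to 178 CPM in all 12 libraries. In these bulk libraries, a larger share of cells with Cybb and more Cybb RNA per cell cannot be told apart.

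The pattern of Cybb over the 12 libraries was compared with that of 10066 other genes after the mean of each subset was taken off, as a description. The genes most like it were Gbp7 (r = 0.923), an interferon-induced GTPase, Stradb (0.913), Slc25a35 (0.912), Ift80 (0.912), and Galnt7 (0.909). Gbp7 had a mean of 327 CPM in CD4+ WT, 500.2 in STAT3ko, and 397 in STAT3ko PD-1ko, and of 276, 345, and 261 CPM in CD8+ T cells. The genes least like Cybb were Nek6 (-0.966), Fam20a (-0.965), and Atf6 (-0.945), and Fam20a fell from a mean of 38.4 CPM in CD4+ WT to 9.55 CPM in STAT3ko. Of the other subunits, Ncf1 was closest (r = 0.766, rank 187), followed by Ncf4 (-0.00), Rac2 (-0.00), and Cyba (-0.48). This order depended on taking off the subset mean. Without that step, Ncf1 was at -0.128 (rank 6155), behind Ncf4 (0.339, rank 2138) and Rac2 (0.317, rank 2344), with Cyba at -0.340. With Spearman's rank correlation after taking off the mean, Ncf1 was still the closest subunit (0.734). Only 1 of the 5 leading genes (Gbp7) was also among the leading 5 without taking off the subset mean, and 1 (Slc25a35) with Spearman's rank correlation. The 12 points of every gene share the same libraries and depth.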

How the data were processed

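RNA-Seq of sorted donor T cells gave 12 libraries in 6 groups of 2. Per the methods of the study, the authors aligned reads with STAR to mm10, the build that the labels name too, and counted them per RefSeq gene with HTSeq-count, and the deposited counts were used as they are. The culture, treatment, and library protocols in the labels describe a differentiating mesenchymal cell line and another library kit than the study's methods, against the tissue and cell type in the same labels. They were set aside. The authors also deposited RPKM values, which were used for levels between genes and for limma on log2(RPKM + 1). Depth was 21676125 to 24551477 counts per library. Counts were filtered (filterByExpr, count minimum 10) and TMM-normalized, and edgeR 4.0.16 (R 4.3.3) quasi-likelihood tests were fitted over all genes, per subset for genotypes (11959 and 12002 genes) and over 12 libraries for CD8+ against CD4+ T cells (12334 genes), with Benjamini-Hochberg adjustment and a threshold of 0.05. Fits were tested on simulated data. DESeq2 1.42.0 and limma 3.58.1 gave alternatives.

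The 5 genes and all gene lists were chosen with earlier results of these data known. Named genes were the 5 subunits, Stat3, Pdcd1, all oxidase partners, list genes past the threshold in a genotype comparison, the most abundant gene of each list, defining cell markers, the 5 genes most and 3 least like Cybb, and genes within 500 kb of Cybb. A few genes of these lists are counted but not reported here by name. The study took CD8+ T cells from the same livers as CD4+ T cells but does not say that equal library numbers mark the same pool. Deviations of same-numbered CD4+ and CD8+ libraries of a genotype from group means correlated in all 3 genotypes (r = 0.654 to 0.835 over 10067 genes), so a paired fit was run. The CD8+ against CD4+ differences of the 5 genes were planned as tests but are given with no p, since the genes were chosen on the same libraries. Libraries are pools of 3 recipients, and replicates of a group differed by more than counting noise. With 2 against 2 an exact permutation test cannot go below p = 0.333, so none was used.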

Additional observations from a re-analysis of the deposited data

How the results depend on the processing

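No difference of Cybb reversed under any alternative. On log2(RPKM + 1), where the pseudocount of 1 shrinks low genes, the log2 difference of Cybb in STAT3ko against WT was 2.91 (CD4+) and 1.32 (CD8+), in STAT3ko PD-1ko against WT 1.55 and 0.21, and in CD8+ STAT3ko PD-1ko against STAT3ko -1.11. From the libraries numbered 1 alone (chosen after seeing the data), Cybb in CD8+ STAT3ko PD-1ko against WT was 0.91, and from those numbered 2 it was 0.23, with -1.96 for CD4+ STAT3ko PD-1ko against STAT3ko.

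Leaving out 1 library gave for Cybb 3.54 to 3.89 (CD4+) and 2.31 to 2.81 (CD8+) in STAT3ko against WT, 1.77 to 2.54 and 0.33 to 0.82 in STAT3ko PD-1ko against WT, and -1.94 to -1.17 and -2.09 to -1.87 in STAT3ko PD-1ko against STAT3ko. For CD8+ against CD4+ T cells it gave -1.71 to -1.20 in WT, -2.71 to -2.49 in STAT3ko, and -3.40 to -2.62 in STAT3ko PD-1ko. The numbers of genes called moved far more. They were 1 to 49 and 0 to 2 in STAT3ko against WT, 62 to 1947 and 111 to 1908 in STAT3ko PD-1ko against WT, 0 to 1212 and 2 to 1878 in STAT3ko PD-1ko against STAT3ko, and 611 to 1320 (WT), 428 to 1135 (STAT3ko), and 163 to 505 (STAT3ko PD-1ko) between subsets. The lowest counts of both STAT3ko PD-1ko comparisons came without its second library in each subset.

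In STAT3ko against WT, 40 CD4+ calls became 271 with DESeq2, 164 with 12 libraries in the fit, 165 with all genes of at least 1 count, and 1 with only the 4 libraries compared, and 7 CD8+ calls became 210, 20, 66, and 0, and 1 with at least 10 counts in every library. In CD4+ STAT3ko PD-1ko against STAT3ko, DESeq2 called 2098 and the fit of 12 libraries 2299, and against WT the latter called 2462. With the 4 libraries of a genotype alone, 818 (WT), 523 (STAT3ko), and 201 (STAT3ko PD-1ko) genes differed between subsets.

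With the replicate number as a block, counts were 303 in CD4+ STAT3ko against WT, 3104 in STAT3ko PD-1ko against WT, 3105 in STAT3ko PD-1ko against STAT3ko, and 2014 (WT), 1909 (STAT3ko), and 939 (STAT3ko PD-1ko) between subsets. Within a subset, deviations of same-numbered libraries correlated with r = 0.224 to 0.788 (CD4+) and 0.0532 to 0.801 (CD8+). The library names in the labels run in separate series for the numbers 1 and 2, and for T cell receptor sequencing the study names batches of combined mice, but no source used here ties a number of the RNA-Seq libraries to a batch. With genotype and number together as a replicate block, 2991, 3077, and 1774 genes differed between subsets. For single genes other than Cybb, a value called in the main fit counted as the same when direction and call held. An uncalled value, or one given with no p, counted as the same within the SD between replicates of the main value, whatever its sign. By these rules 3914 values were the same, 152 moved, 86 gained a call, and 125 lost one. Except where a setting itself uses fewer libraries or other genes, the cause was not tested. With 2 pools per group, depth limits Spi1 and the other oxidases, which had few reads.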

Other observations

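On chromosome X, 15 genes of the table lie within 500 kb of Cybb, and 3 of them (Lancl3, Xk, and Dynlt3) were tested. None passed in STAT3ko against WT in either subset, by edgeR's quasi-likelihood test. Dynlt3, a dynein light chain gene, had a mean of 19 ± 1.55 CPM in CD8+ STAT3ko and 32.2 ± 0.941 CPM in CD8+ STAT3ko PD-1ko (SD, n = 2), a log2 fold change of 0.77 (adjusted p = 0.017), opposite in sign to Cybb. This call was lost without either STAT3ko PD-1ko library (adjusted p = 0.0598 and 0.0946) or the second STAT3ko library (0.111). Between the subsets in STAT3ko, Dynlt3 was lower in CD8+ T cells (-1.11, adjusted p = 0.0388), with 55.7 and 26.4 CPM in the CD4+ libraries. That call was lost in 8 of the fits that left out 1 library, and without the first CD4+ STAT3ko library the difference was -0.49 (adjusted p = 0.197). Lancl3 fell by 0.56 in CD8+ STAT3ko PD-1ko against WT (adjusted p = 0.0408), and this call was lost in each of the 6 fits that left out 1 library (adjusted p = 0.0571 to 0.159). Xk, the gene beside Cybb that carries the Kx antigen in humans, had means of 7.53 ± 0.551 CPM in CD4+ WT and 9.67 ± 0.976 CPM in CD4+ STAT3ko (SD, n = 2), and passed in no comparison of these genotypes.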
